A study of Oryza sativa with 4 samples.

Results

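Polysomal mRNA (PS-mRNA) of the salt-sensitive rice genotype IR29 was compared between salt-treated and control seedlings, transcript by transcript and then by functional class. Annotated transcripts were considered where FPKM (fragments scaled to transcript length and to the number of mapped fragments in the library) reached 5 or more in at least 1 of the 2 libraries. That left 11119 transcripts of 10599 loci, out of 57629 annotated transcripts and 89715 assembled ones. IR29 seedlings of 24 days, grown on Yoshida medium with no transgene or mutant allele described, received 150 mM NaCl for 24 h (salt) or stayed on Yoshida medium (control). Each condition was 1 library of poly(A) RNA taken from polysome fractions of whole seedlings, so shoots and roots were mixed. The series held 4 libraries, the other pair being the salt-tolerant genotype Pok under the same conditions. With 1 library a side there was no replicate check and no test, and every value below is a size that describes this pair of libraries.

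An mRNA carrying several ribosomes sediments with the polysomes, so its polysomal level depends on how much of the mRNA exists and on how much of it is loaded with ribosomes, and these cannot be told apart here. In rice, excess sodium first limits water uptake and then accumulates in leaves. Abscisic acid (ABA) made under water deficit acts through PYL receptors, which block protein phosphatases 2C and so free SnRK2 kinases to act on bZIP factors and on genes of protective proteins such as dehydrins. In whole seedlings, fewer cells of a type and less RNA per cell cannot be told apart either.

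A transcript was said to have risen or fallen where the log2 ratio of (FPKM + 1), salt over control, was at least 1 or at most -1. By that limit 1775 transcripts (16.0% of those considered) rose, 546 (4.91%) fell and 8798 did neither. The median log2 ratio was 0.31, with quartiles of -0.11 and 0.73, and 508 transcripts rose by 2 or more on the log2 scale against 133 that fell by as much. The excess of risen transcripts depended on the scaling: of all transcripts past the limit, 76.5% rose as deposited, 59.2% rose once the shift of 0.26 (log2) in transcripts at 5 FPKM or more in both libraries was removed, and 50.2% rose after upper-quartile scaling, which removed 0.37. Counts of a class are therefore best read against 16.0% and 4.91%, and a class median against 0.31. A transcript low in one library was considered only because the other library was high, and at 2 FPKM or less in one library a call followed from the rule itself. This minimum fixed the rise of 499 transcripts and the fall of 157, and of the other 10463, 12.2% rose and 3.72% fell. The number fixed is given for some classes below and not for all, so other counts can also include such calls. The same holds for any named transcript at 2 FPKM or less in one library.

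Among the most abundant transcripts decreases were as frequent as increases. Of the 242 transcripts with a mean of 100 FPKM or more over both libraries, 34 rose and 39 fell, with a median log2 ratio of -0.18. Between 25 and 100 FPKM, 213 rose and 80 fell among 1322, and the median was 0.25. By chromosome, the share that rose ran from 14.1% on chromosome 2 to 19.3% on chromosome 10, and the share that fell from 3.30% on chromosome 8 to 7.66% on chromosome 10.

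**Figure D1:**
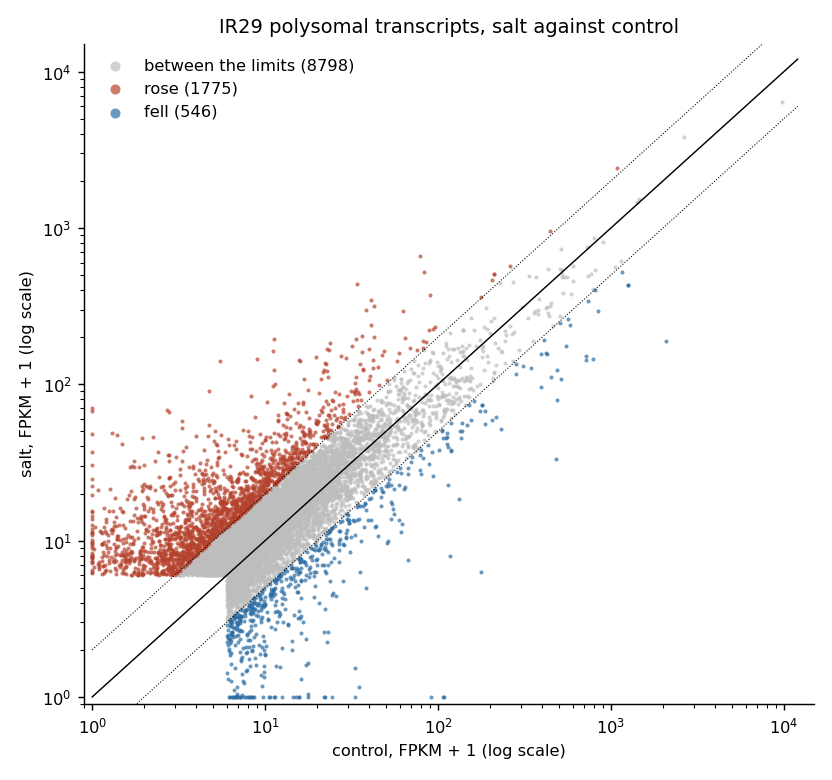
Each point is 1 of the 11119 transcripts considered, with FPKM + 1 in the IR29 control library on the x axis and in the salt library on the y axis, both on log scales. The solid line is equality and the dotted lines are the limits of 1 and -1 on the log2 scale. The 1775 transcripts that rose lie above the upper dotted line, mostly at low control levels, and the points that fell reach into the most abundant transcripts.

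Summed over all annotated transcripts, FPKM was 236639 in control and 260409 in salt, but these sums were only 25.8% and 13.6% of the FPKM of everything assembled. Assembled transcripts at loci under 200 bases held 51.6% of the summed FPKM in control and 74.2% in salt, and FPKM is unstable at such lengths. Dropping the annotated transcripts at those loci, with no rescaling of the rest, left 11109 considered, of which 1771 rose and 543 fell. Because nothing was rescaled, these counts do not show what the short loci do to the scaling. Markers of both organs were lower in the salt library. Of 12 leaf markers considered, 10 fell and none rose, and their summed FPKM went from 5711 to 1474. Of 11 root markers, 8 fell and none rose, and their sum went from 383 to 91.9 FPKM. One leaf marker, the minor light-harvesting transcript Os11g13890.4, was listed at 0 in salt and at 10.4 FPKM in control, and no other marker considered was at 0. The part of organ make-up in the results below was not tested.

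Protective proteins of water deficit gave 3 of the 10 largest increases among transcripts above 0 in both libraries with a specific annotation. Dehydrins, hydrophilic proteins that shield cell components as water is lost, rose in 6 of 6 members considered, with a median log2 ratio of 3.40, and the rise of 4 of them was fixed by the minimum. RAB16A (Os11g26790.1), the classic ABA-induced dehydrin of rice, measured 3.73 FPKM in control and 89.3 in salt, a log2 ratio of 4.25. Its neighbours in the chr11:14856502-14880171 array (MSU v6.1, positions of assembled loci) moved with it, all 4 loci rising with a median of 3.81. The array members are similar in sequence, so reads may have been divided among them. Outside the array, dehydrin Os02g44870.1 was the most abundant, at 22.3 FPKM in control and 165 in salt. Summed over the family, 28.4 FPKM became 324. In Pok the family's median was 5.49, from polysomal libraries made the same way, and the difference between genotypes was not tested. Here and below, Pok values of a class are over the members considered in IR29, whatever their level in Pok. Over all transcripts considered in IR29 the Pok median was 0.12. Of the 11551 transcripts that reached the minimum in Pok itself, 1597 rose and 505 fell.

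Late embryogenesis abundant (LEA) proteins, which accumulate in drying seeds and in stressed leaves, rose in 11 of 17 members and fell in none, with a median of 2.15 (7 rose after either scaling). The rise of 6 was fixed by the minimum, and the median of the other 11 was 0.77. OsLEA3 (Os05g46480.2, chr5:26864964-26866259) went from 4.50 to 140 FPKM, the second largest increase among specifically annotated transcripts above 0 in both libraries. The most abundant member, Os01g21250.1, went from 81.7 to 518 FPKM. Universal stress proteins rose in 7 of 17 with a median of 0.95, among them Os01g32780.1, with 9.22 FPKM in control and 75.5 in salt. Small heat shock proteins, chaperones that hold unfolded proteins, rose in 4 of 10, whereas the larger class of hsp70, hsp90, DnaJ proteins and chaperonins had 10 risen and 7 fallen of 85, with a median of 0.27 that turned to -0.07 under upper-quartile scaling. Within that class the chaperonins, which fold proteins in plastids and mitochondria, were mostly lower: 9 of 10 lay below 0, 3 fell and 1 rose, and Os06g09688.1 measured 207 FPKM in control and 109 in salt.

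Salt-response genes familiar from rice genetics were among those that rose. SALT (Os01g24710.1), a mannose-binding jacalin-type lectin first found as a salt-induced protein, stood at 41.5 FPKM in control and 315 in salt. The hydrophobic membrane peptide RCI2-5 (Os03g17790.1) measured 10.4 and 99.9 FPKM, and the plastid Clp-type protein ERD1 (Os02g32520.1) 10.3 and 123 FPKM. Proline synthesis rose at P5CS1 (Os05g38150.1), its rate-limiting enzyme, from 14.2 to 32.9 FPKM. Among 20 enzymes of compatible solutes, the small molecules that balance osmotic pressure, 10 rose and none fell, the rise of 6 being fixed by the minimum, as it was for all 3 trehalose phosphatases considered. Of the trehalose-6-phosphate synthases 5 of 10 rose. Trehalose phosphatase Os05g03810.1 went from 1.24 to 13 FPKM, while OsTPP1 (Os02g44230.1) was not considered, at 1.89 FPKM in control and 1.84 in salt.

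**Figure D2:**
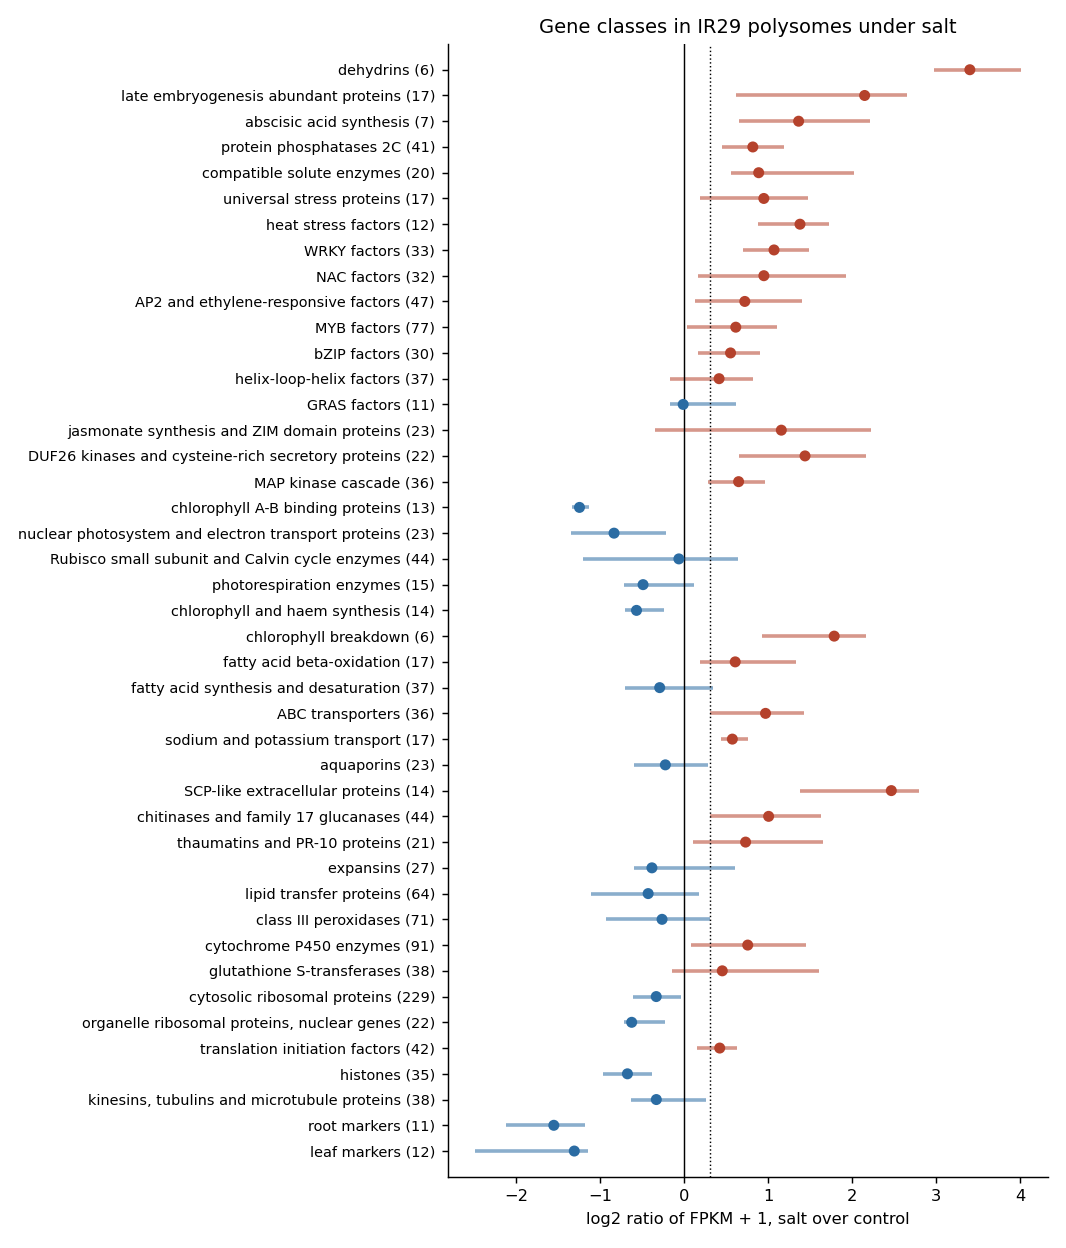
Functional classes by annotation text, with the log2 ratio of (FPKM + 1), salt over control, on the x axis and the number of transcripts considered after each name. Points are class medians, bars run between the quartiles, and the dotted line is the median of all transcripts considered. Classes with a median above the dotted line are red and those below it blue. Dehydrins (3.40) and SCP-like extracellular proteins (2.47) lie farthest to the right, root markers (-1.55), leaf markers (-1.31) and light-harvesting proteins (-1.24) farthest to the left of the dotted line at 0.31.

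In ABA signalling, increases were found among the phosphatases, and the enzymes of ABA synthesis that rose did so mainly from low control levels. The 9-cis-epoxycarotenoid dioxygenases cleave carotenoids to the ABA precursor, and the rise of the 3 considered was fixed by the minimum. Os07g05940.1 measured 0.671 FPKM in control and 19.8 in salt, Os12g42280.1 0.680 and 7.33, and Os03g44380.1 0.579 and 5.81. All control values were below 1 FPKM, so the ratios rest on a low base. ABA 8'-hydroxylase Os08g36860.1, which inactivates the hormone, went from 2.66 to 7.19 FPKM. Protein phosphatases 2C, several of which switch off ABA signalling, rose in 14 of 41 members and fell in none, with a median of 0.82, and 39 of 41 lay above 0. The rise of 3 was fixed by the minimum. The largest was Os06g48300.1 (0.591 FPKM in control, 17.5 in salt), followed by Os09g15670.1 (4.59 and 46.3) and Os03g16170.1 (4.26 and 39.9). After centring, 9 of the phosphatases rose, and after upper-quartile scaling 8. By contrast only 1 of the 9 SnRK2 kinases considered rose, Os02g34600.1 from 6.41 to 26.6 FPKM, although all 9 lay above 0.

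Jasmonate genes split into groups. Jasmonate is made from membrane lipids by lipoxygenases and 12-oxophytodienoate reductases, and its responses are held back by ZIM domain (JAZ) repressors, which are themselves induced by the hormone. ZIM domain proteins rose in 6 of 6 with a median of 1.72, the most abundant being Os03g28940.1 (22.1 FPKM in control, 73.5 in salt). Of the 12-oxophytodienoate reductases considered, 4 of 5 rose, led by Os06g11200.1 with 0.351 and 17.8 FPKM. Lipoxygenases rose in 3 of 8 and fell in 1, with Os08g39850.2 going from 0.998 to 14.9 FPKM. The 3 transcripts annotated as jasmonate-induced proteins ran the other way and all fell, with a median of -1.96 and salt levels of 0.621 to 2.29 FPKM. Over the whole jasmonate list the rise of 4 and the fall of 2 were fixed by the minimum. Of the other 17, 9 rose and 2 fell. In the gibberellin class, 9 of 30 rose and 1 fell, among them gibberellin 2-beta-dioxygenase Os01g55240.1, an enzyme type that inactivates the hormone, from 2.97 to 13.9 FPKM. Ethylene genes rose in 6 of 18, including ACC oxidase Os05g05680.1 (24.1 FPKM in control, 62.2 in salt), which makes ethylene, and an ethylene-insensitive 3 protein, Os07g48630.1 (21.8 and 54.8), the type of factor that carries its signal. After upper-quartile scaling 1 of the ethylene genes rose. Cytokinin genes had 3 risen and 1 fallen of 10, and auxin response proteins (Aux/IAA proteins and auxin response factors) 2 risen and none fallen of 38, with a median of 0.22 that turned to -0.11 under upper-quartile scaling.

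Transcription factor families differed widely in how many members rose. NAC factors, plant-specific regulators of stress and senescence, rose in 15 of 32 and fell in 1, with a median of 0.95 (the rise of 4 fixed by the minimum). SNAC1 (Os03g60080.1) and SNAC2 (Os01g66120.1), both known to raise stress tolerance when overexpressed in rice, measured 18.6 and 15.9 FPKM in control and 148 and 107 in salt. WRKY factors, regulators of defence and senescence, rose in 18 of 33 (4 fixed by the minimum) with none fallen and a median of 1.07, and the highest of them, OsWRKY53 (Os05g27730.1), measured 21.8 FPKM in control and 52.5 in salt. Heat stress factors, which switch on chaperone genes, rose in 7 of 12 (3 fixed by the minimum), and all 12 lay above 0. Os06g35960.1 led them with 7.08 and 45.4 FPKM.

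The largest increase of specifically annotated transcripts above 0 in both libraries belonged to an HD-Zip factor, Os02g43330.1, with 0.309 FPKM in control and 47.5 in salt (log2 ratio 5.21). Only 9 of 46 homeobox and HD-Zip members rose, and the rise of 4, Os02g43330.1 included, was fixed by the minimum. The C2H2 zinc finger proteins also held 1 very large change, ZOS3-21 (Os03g60560.1) from 1.70 to 67.4 FPKM, within a family where 12 of 56 rose (4 fixed by the minimum) and 2 fell, and where 4 rose after either scaling. Of 77 MYB factors 21 rose, 11 of them fixed by the minimum, and 3 fell. They included Os05g50340.1, with 66.4 FPKM in control and 6.49 in salt, beside Os05g04210.1, which went from 0.270 to 20.3 FPKM. AP2 and ethylene-responsive factors rose in 18 of 47 (8 fixed by the minimum) and fell in 2, and bZIP factors rose in 7 of 30 (3 fixed by the minimum), among them Os02g52780.1 (2.61 and 16.6 FPKM). Helix-loop-helix factors were the most divided, with 8 risen and 6 fallen of 37. Their largest decrease, Os03g56950.2 (log2 ratio -2.64), shares its locus with Os03g56950.1, which rose (1.66), so reads may have been divided between the 2. GRAS factors, which include the gibberellin repressor and SCARECROW types, and NF-Y factors had no member past the limit, of 11 and 12 considered.

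**Figure D3:**
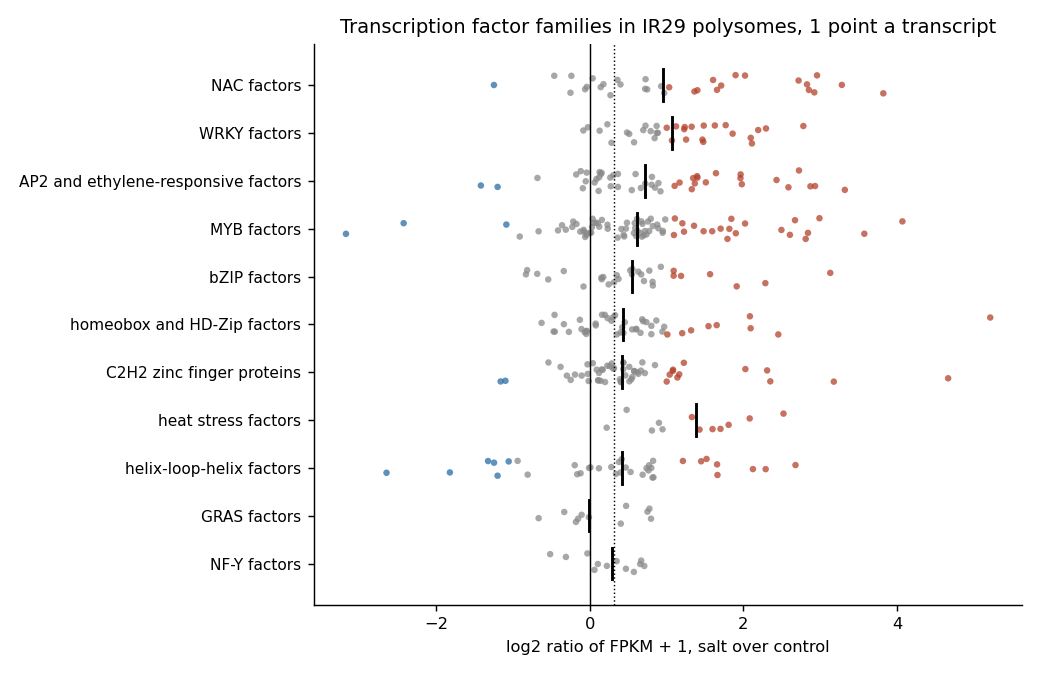
Transcription factor families, 1 point a transcript, with the log2 ratio of (FPKM + 1), salt over control, on the x axis. Red points rose, blue points fell, the thick bar is the family median and the dotted line the median of all transcripts considered (0.31). NAC and WRKY medians (0.95 and 1.07) lie to the right of that line, while all GRAS and NF-Y points are grey.

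Among receptor and relay kinases the DUF26 proteins stood farthest from the share of all transcripts. Calcium-dependent and SnRK-type kinases rose in 13 of 56 with none fallen (6 rose after either scaling), led by Os11g03970.1 (3.37 FPKM in control, 23.9 in salt). In the MAP kinase cascade, a relay of kinases that carries stress signals, 8 of 36 rose (3 fixed by the minimum), and the top tier held most of these: 5 of 10 MAP kinase kinase kinases against 1 of 12 MAP kinases. A row of 4 MAP kinase kinase kinase loci at chr1:28920453-28947000 rose in full, with control levels of 1.74 to 4.14 FPKM and salt levels of 14.7 to 18.6. DUF26 proteins, cysteine-rich receptor kinases and their secreted relatives, rose in 14 of 22 (4 fixed by the minimum) and fell in 2, with a median of 1.44. Of these, secretory protein Os03g16960.1 went from 1.78 to 65.3 FPKM and receptor-like kinase Os04g56430.1 from 22.8 to 183 FPKM. Leucine-rich repeat kinases and proteins rose in 8 of 46 (17.4%), close to the 16.0% of all transcripts. Wall-associated kinases had 2 risen and 1 fallen of 7, and their median of 0.83 turned to -0.14 under upper-quartile scaling.

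Photosynthesis fell at its most abundant members. Light-harvesting chlorophyll A-B binding proteins, which gather light for both photosystems, lay below 0 in 13 of 13 and fell in 11, with a median of -1.24. Os01g52240.1 measured 781 FPKM in control and 143 in salt, Os11g13890.1 566 and 260, and Os06g21590.1 392 and 155. Summed over the class, 2590 FPKM became 913, a change from 1.09% to 0.351% of all annotated FPKM, a share that no scaling of a library alters. Of these 13 transcripts 7 are also leaf markers, and among the other 6, 4 fell. In Pok the class median was -0.51 and 1 member fell. The Rubisco small subunit of the leaf, Os12g17600.2 (chr12:10077809-10079072), was the most abundant member of the photosynthesis classes in control and among the 10 largest decreases named here, with 2075 FPKM in control and 189 in salt. Rubisco activase (Os11g47970.1), which keeps the enzyme active, went from 488 to 77.8 FPKM.

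Of the 23 nuclear transcripts for photosystem and electron transport proteins, 8 fell and 2 rose, with a median of -0.83. Plastocyanin (Os06g01210.1), the copper protein that carries electrons to photosystem I, went from 510 to 107 FPKM, and an oxygen-evolving enhancer protein (Os07g36080.3) from 545 to 176 FPKM. Both members that rose were annotated as the 10 kDa polypeptide of photosystem II. They are Os07g05365.1 (1.15 FPKM in control, 21.4 in salt) and Os07g05360.1 (15.6 and 74.3), adjacent loci by number, while Os08g10020.2 with the same annotation measured 781 and 403 FPKM, so reads could have been divided between these copies. The class of Rubisco small subunit and Calvin cycle enzymes also took in carbonic anhydrase. It was split, with 13 fallen and 5 risen of 44 and a median of -0.06. Its summed FPKM went from 4549 to 1827, a sum that includes Rubisco small subunit Os12g17600.2 (2075 FPKM in control, 189 in salt). The fall of 4 was fixed by the minimum, and the median of the other 40 was 0.24. Of the 42 members that are not leaf markers 11 fell and 5 rose, with a median of 0.16. A carbonic anhydrase transcript, Os01g45274.4, fell from 479 to 32.3 FPKM, and another transcript of that locus, Os01g45274.3, from 15.1 to 0.294. PsbS (Os01g64960.2), which sheds excess light as heat, went from 80.6 to 32.6 FPKM.

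Sequences of plastid-genome type, copies of chloroplast genes placed on nuclear chromosomes, fell in 5 of 35 and rose in none, with a median of -0.04. Reads of the chloroplast's own genes can map to them, and the 2 sources cannot be told apart. Os01g58038.1 and Os02g24628.1, both annotated as photosystem II protein Z, were listed with equal values of 1252 FPKM in control and 430 in salt.

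**Figure D4:**
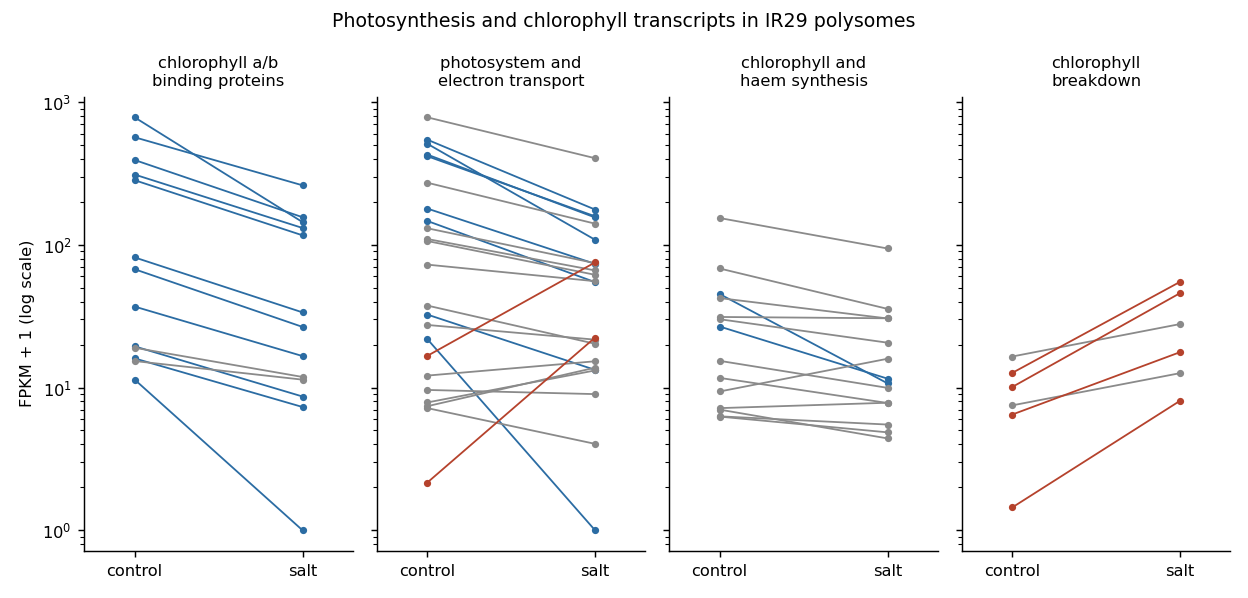
Photosynthesis and pigment classes in the IR29 polysomal libraries, 1 point a transcript, with FPKM + 1 on a log y axis and a line from the control to the salt value of each transcript. Red lines rose, blue lines fell and grey lines did neither. Light-harvesting proteins slope down in 13 of 13 (median log2 ratio -1.24), whereas chlorophyll breakdown slopes up in 6 of 6 (median 1.79).

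Pigment genes moved in opposite directions. Chlorophyll and haem synthesis lay below 0 in 12 of 14, with 2 fallen and a median of -0.57, and protochlorophyllide reductase A (Os04g58200.1), the light-dependent step to chlorophyll, went from 44.2 to 9.70 FPKM. Chlorophyll breakdown rose in 4 of 6, and all 6 lay above 0. The stay-green protein SGR (Os09g36200.1), which draws magnesium out of chlorophyll, measured 5.47 FPKM in control and 16.7 in salt, and pheophorbide a oxygenase (Os03g05310.1), which opens the ring, 0.444 and 7.08. The red chlorophyll catabolite reductase that follows it (Os10g25020.1) went from 9.08 to 44.9 FPKM and NYC3 (Os06g24730.1), named for its non-yellow-colouring mutant, from 11.7 to 54.0 FPKM. NYC1, a chlorophyll b reductase, was listed at 0 in both libraries. In Pok the same class had 4 risen, 1 fallen and a median of 1.20.

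Enzymes that degrade reserves included some that rose. Peroxisomal and mitochondrial beta-oxidation, which degrades fatty acids, rose in 6 of 17 with none fallen, and the glyoxylate cycle enzymes that turn its product into organic acids were among the named citric acid cycle members: isocitrate lyase (Os07g34520.1) with 3.71 FPKM in control and 22.9 in salt, and malate synthase (Os04g40990.1) with 1.49 and 15.0. Over that whole class 4 of 25 rose, and its median of 0.23 turned to -0.13 under upper-quartile scaling. Fatty acid synthesis and desaturation lay mostly lower, 5 fallen and 3 risen of 37, with a median of -0.29. Starch breakdown rose in 4 of 9 and fell in 1: beta-amylase Os10g41550.1 went from 3.33 to 25.8 FPKM while another beta-amylase, Os07g35940.1, went from 16.9 to 5.59 FPKM. Sucrose synthases also differed, Os03g28330.1 falling from 178 to 72.9 FPKM and Os03g22120.1 rising from 7.49 to 23.5 FPKM.

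Amino acid breakdown rose in 4 of 9 and fell in 1, including saccharopine dehydrogenase of lysine breakdown (Os02g54254.1), with 1.66 FPKM in control and 19.3 in salt, and glutamate decarboxylase of 4-aminobutyrate synthesis (Os03g13300.1), with 12.8 and 32.1. After upper-quartile scaling 1 of the 9 rose. Asparagine synthetase (Os03g18130.1), which stores nitrogen for transport, went from 15.6 to 75.8 FPKM, while the cytosolic glutamine synthetase Os02g50240.1 measured 76.2 and 82.1 FPKM and ferredoxin-nitrite reductase Os02g52730.1 went from 25.8 to 9.01 FPKM. Autophagy proteins had 1 risen of 9, Os04g53240.3 from 6.88 to 28.6 FPKM, and proteasome subunits 1 risen and 1 fallen of 50, with a median of 0.22 that turned to -0.14 under upper-quartile scaling.

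Sodium and potassium transport rose at close to the share of all transcripts. Of 17 members considered 3 rose and none fell, with a median of 0.57, and 1 rose after either scaling. The vacuolar sodium/proton antiporter NHX1 (Os07g47100.1) measured 6.93 FPKM in control and 12.3 in salt, short of the limit. SOS1 (Os12g44360.3), which exports sodium across the plasma membrane, and HKT1;5 (Os01g20160.1), which withdraws sodium from the xylem and underlies a tolerance locus of rice, were under 5 FPKM in both libraries, at 3.87 and 4.28 FPKM for the first and 1.20 and 0.395 for the second. Of the same SOS1 locus, Os12g44360.2 measured 0.968 FPKM in control and 3.22 in salt, and Os12g44360.4 0.328 and 0.751. The minimum was applied to each transcript and not to the locus. Another HKT transporter, Os04g51820.3, went from 1.81 to 6.73 FPKM, while OsHKT2 (Os06g48810.1), a root marker and the 1 member below 0, went from 5.13 to 2.17 FPKM. ABC transporters, which pump hormones, lipids and toxins, rose in 17 of 36 with none fallen and a median of 0.97, as with Os01g42380.1 (3.19 and 30.3 FPKM). The rise of 5 was fixed by the minimum, and the other 31, of which 12 rose, had a median of 0.69. After upper-quartile scaling 9 ABC transporters rose.

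Aquaporins, the water channels, had 3 risen and 3 fallen of 23, with a median of -0.22. All 3 that fell are root markers. They are the silicon channel Lsi1 (Os02g51110.1, chr2:31260376-31264091), with 50.4 FPKM in control and 8.93 in salt, Os02g44080.1 with 29.9 and 7.43, and Os04g44060.1 with 58.8 and 21.7. Of the other 20 aquaporins 3 rose and none fell, and the most abundant, Os04g47220.1, measured 191 and 223 FPKM. Lsi2 (Os03g01700.1), the silicon exporter that works with Lsi1, went from 26 to 9.21 FPKM. Metal transporters and nicotianamine synthases had 5 fallen and 1 risen of 22, with zinc transporter Os08g42170.1 going from 15.1 to 2.29 FPKM and Nramp6 (Os02g03900.1) from 21.1 to 5.38 FPKM. In Pok the same root markers had 4 risen and 1 fallen with a median of 0.45, against -1.55 in IR29. Over all transcripts considered in IR29 the median was 0.12 in Pok and 0.31 in IR29. Lsi1 measured 20.2 FPKM in Pok control and 34.1 in Pok salt. The difference between genotypes was not tested.

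Secreted and wall proteins held some of the largest changes in both directions. SCP-like extracellular proteins, a family that includes pathogenesis-related protein 1, rose in 12 of 14 and fell in 2, with a median of 2.47 and the rise of 5 fixed by the minimum, and their summed FPKM went from 203 to 876. An array of 9 loci at chr7:1318031-1444070 rose in full, with a median of 2.51. Os07g03288.1 and Os07g03377.1 in it carried equal values (1.79 FPKM in control, 24.3 in salt) and reads may have been shared between near-identical copies. Os10g11500.1, outside the array, measured 63.3 and 196 FPKM. Chitinases and family 17 glucanases, which cut fungal walls and callose, rose in 22 of 44 (4 fixed by the minimum) with none fallen and a median of 1.01 (12 rose after upper-quartile scaling). Glucanase arrays at chr1:41345531-41525372 and chr1:41591173-41659017 rose at 5 of 6 and 4 of 4 loci, and chitinase CHIT14 (Os10g39680.1) went from 28.5 to 146 FPKM. PR-10 proteins Os12g36830.1 and Os12g36850.1 went from 33.1 to 433 FPKM and from 10.1 to 161 FPKM, and thaumatins and PR-10 proteins together rose in 8 of 21. Bowman-Birk type trypsin inhibitors were among the 6 of 15 proteinase inhibitors that rose, for example Os01g04050.1, from 41.6 to 199 FPKM.

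Other secreted families fell or divided. In the same libraries summed root markers went from 383 to 91.9 FPKM, and the part of root material in these changes was not tested. Lipid transfer proteins, small carriers of wax and cutin precursors, fell in 18 of 64 and rose in 7, with a median of -0.43, and 16 of the 62 that are not root markers fell. LTPL121 (Os04g46820.1) showed the largest decrease of specifically annotated transcripts above 0 in both libraries, with 33.9 FPKM in control and 0.150 in salt. Its neighbour LTPL120 (Os04g46810.1) went from 32.1 to 0.534 FPKM, and the root marker LTPL112 (Os02g44310.1) from 116 to 6.99 FPKM. LTPL102 (Os04g33920.1) rose from 0.876 to 28.5 FPKM, and the most abundant member, LTPL26 (Os12g02300.1), measured 604 and 566. Class III peroxidases, which cross-link the wall, fell in 14 of 71 and rose in 10, with a median of -0.26 although their summed FPKM went up from 984 to 1186. The fall of 9 and the rise of 1 were fixed by the minimum. Of the other 61, 9 rose and 5 fell, with a median of -0.11. The extremes of the whole class were Os01g18970.1 (16.7 FPKM in control, 0.0427 in salt) and Os12g02060.1 (2.30 and 57.3).

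Glycine-rich proteins, structural proteins of vascular walls among them, fell in 9 of 25 and rose in 4, with a median of 0.11 that turned to -0.13 after centring. The decrease was concentrated in an array at chr10:16444614-16564087, where 8 of 9 loci fell with a median of -2.14. Os10g31660.1 in it measured 113 FPKM in control and 21.6 in salt, and Os10g31690.1 37.5 and 3.99. A second row of such loci at chr6:12211164-12298099 held 1 that rose and none that fell of 6, with Os06g21270.1 at 75.6 and 132.7 FPKM. Expansins, which loosen walls during growth, divided by annotation text. All 4 annotated as beta-expansin rose, Os09g29710.1 from 20.8 to 118 FPKM. Of the other 23, which were not sorted by subfamily, 5 fell and 1 rose. Plastocyanin-like proteins, small copper proteins of the cell surface, had 8 risen and 6 fallen of 27, with a median of -0.50 but a summed FPKM that went from 439 to 702 as abundant members such as Os08g37670.1 (61.8 and 295 FPKM) rose. Arabinogalactan, fasciclin and extensin proteins had 3 fallen and 2 risen of 36, and laccases, dirigent proteins and lignin enzymes 6 fallen and 3 risen of 42.

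**Figure D5:**
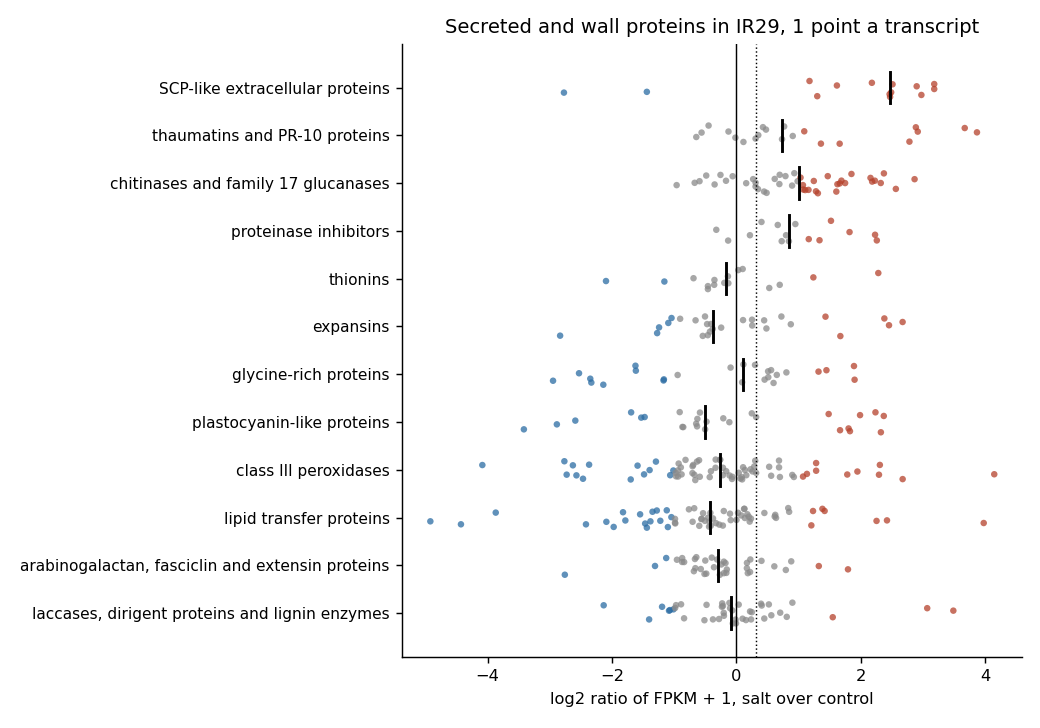
Secreted and wall protein families, 1 point a transcript, with the log2 ratio of (FPKM + 1), salt over control, on the x axis. Colours and lines are as for the transcription factors. SCP-like proteins rose in 12 of 14, chitinases and glucanases have no member that fell, and lipid transfer proteins reach down to -4.92.

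Thionins and metallothioneins, small cysteine-rich proteins that are among the most abundant here, had medians close to 0 in IR29. Thionins, which are antimicrobial, had 2 risen and 2 fallen of 16 (12.5% each way), with a median of -0.17, and THION3 (Os06g31890.1) measured 554 FPKM in control and 484 in salt. Metallothioneins, which bind metals, had 3 fallen (33.3%, against 4.91% of all transcripts) and none risen of 9, with a median of -0.08. The 3 were Os12g38051.1 (112 FPKM in control, 44.9 in salt), Os05g11320.1 (60.0 and 25.9) and Os01g05585.1 (410.3 and 190.5), while Os01g05650.1, placed in the same assembled locus as the last, measured 226 and 441. Their medians in Pok were 2.33 and 1.70, and the differences between genotypes were not tested.

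In detoxification and specialised metabolism, several rows of neighbouring loci rose. Cytochrome P450 enzymes rose in 34 of 91 (17 fixed by the minimum) and fell in 4, with a median of 0.76, and 4 of 5 loci rose in a row at chr2:21656739-21807849, the region of the phytocassane phytoalexin genes. In the momilactone region of chromosome 4, where rice makes another diterpene phytoalexin, the terpene synthase Os04g09900.1 went from 0.991 to 22.0 FPKM, Os04g10060.1 from 0.150 to 7.42 FPKM and P450 Os04g10160.1 from 1.07 to 17.9 FPKM, all from control levels that fixed their rise. The last 2 of these were placed in 1 assembled locus, chr4:5327770-5525787. A row of 4 glucosyltransferase loci at chr4:7020071-7161676 had a median of 4.04 from control levels of 0.0771 to 1.25 FPKM, which fixed their rise, led by Os04g12690.1 (1.25 FPKM in control, 44.9 in salt). The glucosyltransferase family as a whole had 17 risen (10 fixed by the minimum) and 4 fallen of 53 and a median of 0.03 that turned to -0.23 after centring. Glutathione S-transferases, which conjugate toxins, rose in 12 of 38 and fell in 1, with GSTU6 (Os10g38340.1) at 7.72 and 60.7 FPKM.

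Cytosolic ribosomal proteins were lower in salt by a small amount in most members. Of 229 transcripts of cytosolic ribosomal proteins, 180 lay below 0, 17 fell and 4 rose, with a median of -0.33, and the number that fell was 41 after centring, when 7.92% of all transcripts fell, and 52 after upper-quartile scaling, when 9.66% did. Their summed FPKM went from 21350 to 15547, which was 9.05% of all annotated FPKM in control and 5.99% in salt. Large and small subunits were alike, with medians of -0.34 over 68 transcripts annotated 60S and -0.33 over 45 annotated 40S. Ribosomal protein L39 (Os06g08320.1) measured 1159 FPKM in control and 522 in salt, and a transcript annotated as ribosomal protein S6 (Os03g62630.1) 53.6 and 15.0. Os03g62630.1 is not among those annotated 40S, whose lowest log2 ratio was -1.08. The list was drawn by annotation text, so organelle proteins annotated neither 60S nor 40S could be in it and in its sum. One 60S acidic protein P0 transcript, Os08g03640.1, was 89.5 FPKM in control and listed at 0 in salt, in Pok as well as in IR29 at 90.3 FPKM and 0. Ribosomal proteins of organelles lay below 0 in 19 of 22, with a median of -0.62.

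Initiation factors, which load the ribosome, had 5 risen (11.9%, against 16.0% of all transcripts) and 1 fallen of 42, with a median of 0.42. The SUI1 (eIF1) proteins, which select the start codon, rose in 3 of 5, and Os07g34589.3 went from 32.6 to 195 FPKM. eIF6 (Os01g17330.1), a factor of large-subunit assembly, went from 0.659 to 28.8 FPKM. After upper-quartile scaling 2 initiation factors rose. Elongation and release factors had 2 risen (2 fixed by the minimum) and 3 fallen of 29, with a median of 0.20 that turned to -0.06 after centring. The abundant elongation factor Os03g08010.1, annotated as EF-Tu, measured 805 FPKM in control and 538 in salt. The 4 neighbouring elongation factor loci at chr3:4093835-4118531 had log2 ratios of -0.60 to -0.45 and share sequence.

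Histones and proteins of replication were mostly lower. Histones, made mostly during DNA replication, lay below 0 in 29 of 35 and fell in 8, with a median of -0.67. Histone H3 Os11g05730.1 measured 78.8 FPKM in control and 25.6 in salt, while a linker histone H1, Os06g04020.1, rose from 12.3 to 52.6 FPKM and was the 1 member that did so. DNA replication proteins had 3 fallen and 1 risen of 24, the sliding clamp PCNA (Os02g56130.1) standing at 28.6 and 13.8 FPKM, at the limit, and RPA1B (Os03g11540.1) going from 8.53 to 2.16. Tubulins lay below 0 in 15 of 19 with 2 fallen. Actins and actin-binding proteins had 7 risen and 3 fallen of 36, among them actin-depolymerizing factor Os03g60580.1, which went from 10.2 to 96.0 FPKM.

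Some changes concerned 1 transcript of a locus and not the locus. At 25 loci 1 annotated transcript rose and another fell. S-adenosylmethionine synthetase, which makes the methyl donor of ethylene, polyamine and lignin synthesis, fell at Os05g04510.2 (176 FPKM in control, 5.33 in salt), while Os05g04510.1 of that locus went from 84.6 to 185 FPKM. Phytochrome-interacting factor 4 showed 8.89 and 0.583 FPKM at Os03g56950.2 but 0.952 and 5.16 at Os03g56950.1. How reads were divided between transcripts of a locus was not tested. A further 37 transcripts rose from a listed 0 in control and 37 fell to a listed 0 in salt. Besides the P0 transcript given above, the largest of these were a glyoxalase family transcript, Os07g06660.1, at 107.5 FPKM in control, and the hypothetical Os07g26579.1 at 106 FPKM in control, against Os04g28390.1 at 69.4 and Os11g33349.1 at 65.9 FPKM in salt, both without a described function.

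Transcripts without a described function made up 1839 of those considered and moved much like the whole, with 324 risen, 97 fallen and a median of 0.32 that turned to -0.08 under upper-quartile scaling. Os12g39930.1 among them was the most abundant annotated transcript of all, at 9772 FPKM in control and 6374 in salt. Os11g10470.1 went from 10.3 to 195 FPKM and Os12g08930.1 from 0.932 to 44.5 FPKM.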

How the data were processed

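Polysomal RNA of IR29 seedlings was sequenced by the authors, 1 library from each of 2 conditions. Per the study's methods and the submitters' processing notes, TopHat aligned the filtered reads against MSU v6.1 of rice, Cufflinks assembled transcripts, Cuffmerge and Cuffcompare merged and classed them, and Cuffdiff quantified them. Versions, strandedness and the treatment of multiply mapped reads are not given in the sources used here. Pooling of biological replicates is described for total RNA only. The deposited values are FPKM of each assembled transcript, scaled to library size and length by the authors, with no counts per transcript. Counting error is therefore unknown and no intervals were computed. Read totals of each library are given in the study and were not used here.

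Transcripts of class code "=" with 5 FPKM or more in 1 of the 2 libraries were kept. The log2 ratio of (FPKM + 1), salt over control, was computed with Python 3.11.15 and pandas 2.3.3 from the deposited FPKM, and scripts were tested on simulated data. A limit of 1 was used, with no test. Classes (116 lists) were found by annotation text, and markers and known genes by locus. Members and lists were chosen with earlier results of these data known, and the wording of some lists was corrected after values were seen, the first search being kept as an alternative. Named transcripts were the 4 largest changes and the most abundant member of a list, the 10 largest increases and decreases above 0 in both libraries (1 a locus, leaving out hypothetical, expressed and transposon annotations), the 5 largest values listed at 0 in the other library, and known loci. Os05g04510.1 and Os03g56950.1 were chosen after their values were seen. The genome sequence was not used, so no motifs were searched. Tables of the authors' comparisons and the total RNA libraries were not used here.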

Additional observations from a re-analysis of the deposited data

Results flagged for a closer look

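The median log2 ratio of root markers was -1.55 in IR29 (11 considered, 8 fell) and 0.45 in Pok (4 rose, 1 fell). The median of plastocyanin-like proteins was -0.50 in IR29 (27 considered) and 0.59 in Pok (12 rose, none fell). Both stood out because the medians of the genotypes had opposite signs at 0.4 or more in size. The Pok values are over the members considered in IR29, and over all transcripts considered in IR29 the Pok median was 0.12. The difference was not tested, since each condition was 1 library.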

How the results depend on the processing

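The counts of 1775 risen and 546 fallen transcripts became 2692 and 1057 at a minimum of 1 FPKM, 508 and 133 at a log2 limit of 2, and 962 and 272 with a pseudocount of 5 FPKM. At a minimum of 10 FPKM 329 fell. Upper-quartile scaling gave 1007 and 997, and centring on the median 1214 and 835. Of 1159 recomputed list medians 1069 stayed within the list's own quartiles, 87 lay outside and 3 were reversed: wall-associated kinases went from 0.83 to -0.16 at a minimum of 10 FPKM and to -0.14 under upper-quartile scaling, and plastocyanin-like proteins from -0.50 to 0.67 when FPKM was summed. The medians of 29 of the 116 lists changed sign with a scaling. Summing FPKM per locus turned 9 of 429 named transcripts with a log2 ratio of 1 or more in size: Os01g06290.1 to -0.018, Os02g36740.5 to 0.32, Os03g63090.2 to 0.37, Os04g57220.2 to 0.27, Os06g37000.1 to 0.54, Os08g02640.2 to -0.022, Os08g10020.3 to -0.91, Os10g31320.2 to 2.07 and Os11g44810.3 to 0.95. These turned because another transcript of the locus moved the other way.

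No paired analysis was possible because each condition was 1 library and no test was made. Without counts, the error of a value near 5 FPKM cannot be given, and ratios of transcripts near 0 depend on the pseudocount.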
